A study of Mus musculus with 6 samples.

Results

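Oxidative phosphorylation is carried out by protein complexes I to V of the inner mitochondrial membrane, and the 78 genes described here encode their subunits. They were taken as every probe set annotated to exactly 1 gene symbol with the name pattern of an NADH dehydrogenase (Nduf), succinate dehydrogenase (Sdh), ubiquinol-cytochrome c reductase (Uqcr, Cyc1), cytochrome c oxidase (Cox4 to Cox8) or ATP synthase (Atp5) subunit. These were 160 of 45037 probe sets tested and 78 of 18193 genes, with 33 genes in complex I, 4 in complex II, 9 in complex III, 18 in complex IV and 14 in complex V. For each gene the brightest of its probe sets, by the mean of all 6 arrays, was used. Ndufa4 was counted with complex IV, where its protein is found. All other genes were placed by symbol.

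The study measured cerebellar tissue on Affymetrix expression arrays, from 3 transgenic mice carrying daDREAM and from 3 wild-type mice, as independent biological replicates. DREAM, the product of Kcnip3, is a transcriptional repressor that leaves DNA on binding calcium, and daDREAM is a mutant form that represses irrespective of calcium. The sources used here do not give the promoter that drives the transgene, or the strain, age and sex of the mice. The comparison asks which transcripts differ in the presence of daDREAM.

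Complexes I and II take electrons from NADH and succinate and pass them to ubiquinone. Complex III passes them on to cytochrome c and complex IV to oxygen, and complexes I, III and IV pump protons that drive ATP synthesis by complex V. Neurons depend heavily on this pathway to restore ion gradients after firing. All genes measured here are nuclear genes, and a small set of further subunits is encoded by mitochondrial DNA.

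The regions just before the transcription start are shown for 4 subunit genes: Uqcr11 and Cox5a, which had the largest differences in either direction, and Atp5g2 and Atp5k, which differed in opposite directions and both hold the core letters of an NRF1 site. NRF1 is an activator of many respiratory chain genes, and DREAM binds a downstream regulatory element with the core GTCA. Sequences are RefSeq, build GRCm38.p6, 250 bases ending at the base before the start, 5′ to 3′ on the strand of the gene. Capitals mark GCATGCGC (NRF1 core) and GTCA (DREAM element core), each read on both strands, with overlapping matches run together. DREAM sites that lie downstream of the start are outside these windows.
Uqcr11, chr10:80406822-80407071, minus strand: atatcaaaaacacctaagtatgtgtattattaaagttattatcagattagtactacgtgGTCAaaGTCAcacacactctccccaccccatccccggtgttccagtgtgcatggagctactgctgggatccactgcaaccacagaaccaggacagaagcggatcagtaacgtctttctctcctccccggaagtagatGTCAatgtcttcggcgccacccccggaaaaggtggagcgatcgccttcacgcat
Atp5g2, chr15:102671048-102671297, minus strand: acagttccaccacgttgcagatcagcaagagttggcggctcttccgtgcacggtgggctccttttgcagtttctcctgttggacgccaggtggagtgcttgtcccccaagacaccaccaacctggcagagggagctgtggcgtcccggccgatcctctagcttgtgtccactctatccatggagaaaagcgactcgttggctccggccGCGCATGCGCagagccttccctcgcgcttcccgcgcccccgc
Atp5k, chr5:108434400-108434649, minus strand: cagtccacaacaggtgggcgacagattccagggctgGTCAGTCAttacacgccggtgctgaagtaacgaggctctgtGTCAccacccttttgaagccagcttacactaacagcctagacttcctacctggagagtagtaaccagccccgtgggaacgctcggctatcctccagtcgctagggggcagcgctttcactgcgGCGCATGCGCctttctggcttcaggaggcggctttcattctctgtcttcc
Cox5a, chr9:57520982-57521231, plus strand: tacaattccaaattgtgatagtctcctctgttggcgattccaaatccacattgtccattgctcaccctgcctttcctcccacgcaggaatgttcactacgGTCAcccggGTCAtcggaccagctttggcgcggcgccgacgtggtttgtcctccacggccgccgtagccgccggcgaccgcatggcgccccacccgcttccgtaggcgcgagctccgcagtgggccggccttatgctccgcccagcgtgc

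Of the 78 genes, 64 had a RefSeq promoter entry, and the first listed start of each gene was used. The NRF1 core GCATGCGC or its reverse complement occurred in 7 of 64 windows (10.9%), against 2.32% of all 27025 promoters of the same length. GTCA or its reverse complement occurred in 57 of 64 (89.1%), against 80.3% of all promoters. CCGGAAGT, the core bound by the activator GABP, occurred in 3 of 64 (4.69%), against 2.93% of all. The median share of G and C bases was 56.4% in the promoters of the subunit genes, against 52% in all promoters. The part of base composition in these motif shares was not tested. The 4 windows shown differ in their motifs: Uqcr11 has 3 GTCA matches and 1 CCGGAAGT, which is not in capitals above. Atp5k has 3 GTCA matches beside its NRF1 core, Cox5a has 2 and Atp5g2 has 0 beside its NRF1 core. The median difference between genotypes was 0.00 over the 57 genes with a GTCA match and 0.14 over the 7 without, and 0.07 over the 7 genes with the NRF1 core. These matches describe letters in a window and not bound sites, and the medians carry no test.

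None of the 78 genes passed the test of daDREAM against wild type. At an adjusted p under 0.05 by limma, a moderated linear model fitted over all probe sets, the count was 0 of 78 genes and 0 of 160 probe sets, beside a background of 0% of all genes and probe sets, and the smallest adjusted p was 0.998. At an unadjusted p under 0.05 the count was also 0 of 78 genes, beside 0.951% of all genes higher and 0.473% lower. With a trended and robust prior in limma, 3 subunit genes were higher and 2 lower at that threshold, beside 0.874% and 0.555% of all genes. Levels and differences below are log2 units, and differences are daDREAM minus wild type. In daDREAM 37 genes were higher, 40 were lower and 1 did not differ, with a median difference of -0.01, against 0.01 over all genes. The split followed the scaling: 44 were higher after renewed quantile normalization and 33 after median centring. Differences ran from -0.23 for Cox5a to 0.23 for Uqcr11, which is 0.851 to 1.18 times the wild-type level. In tissue, fewer cells of a type and less RNA per cell cannot be told apart.

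The subunit genes had smaller standard errors than genes at large. Standard errors of the differences had a median of 0.12 over the 78 genes and 0.15 over all genes. These errors are moderated: limma draws the variance of each probe set toward a value shared by all. In Ndufa8, with the lowest pooled SD within genotypes at 0.03, the standard error was 0.11. Intervals of such genes thus depend on the shared value as well as on their own arrays. The 95% interval lay within a 1.5-fold change in either direction for 76 of 78 genes (97.4%), against 76.5% of all genes. The exceptions were Cox8b and Cox8c, tissue isoforms of complex IV, with intervals of -0.32 to 0.59 and -0.48 to 0.64. Narrow intervals were not particular to the 78 genes. The share was 100% for cytochrome c and the carriers, 93.3% for citric acid cycle genes and 64.7% for regulators of mitochondrial biogenesis. Markers of Purkinje and granule cells also had a median standard error of 0.12, with 83.3% of intervals within 1.5-fold in each list. Most of these genes gave strong signals: 71 of 78 had a mean of at least 6, and the median level was 10.49. The 7 genes with a mean under 6 were Ndufb4, Ndufb1, Cox7b2, Cox8b, Cox7c, Cox4i2 and Cox7a1. Detection calls were not used here, and dim levels may be background.

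**Figure D1:**
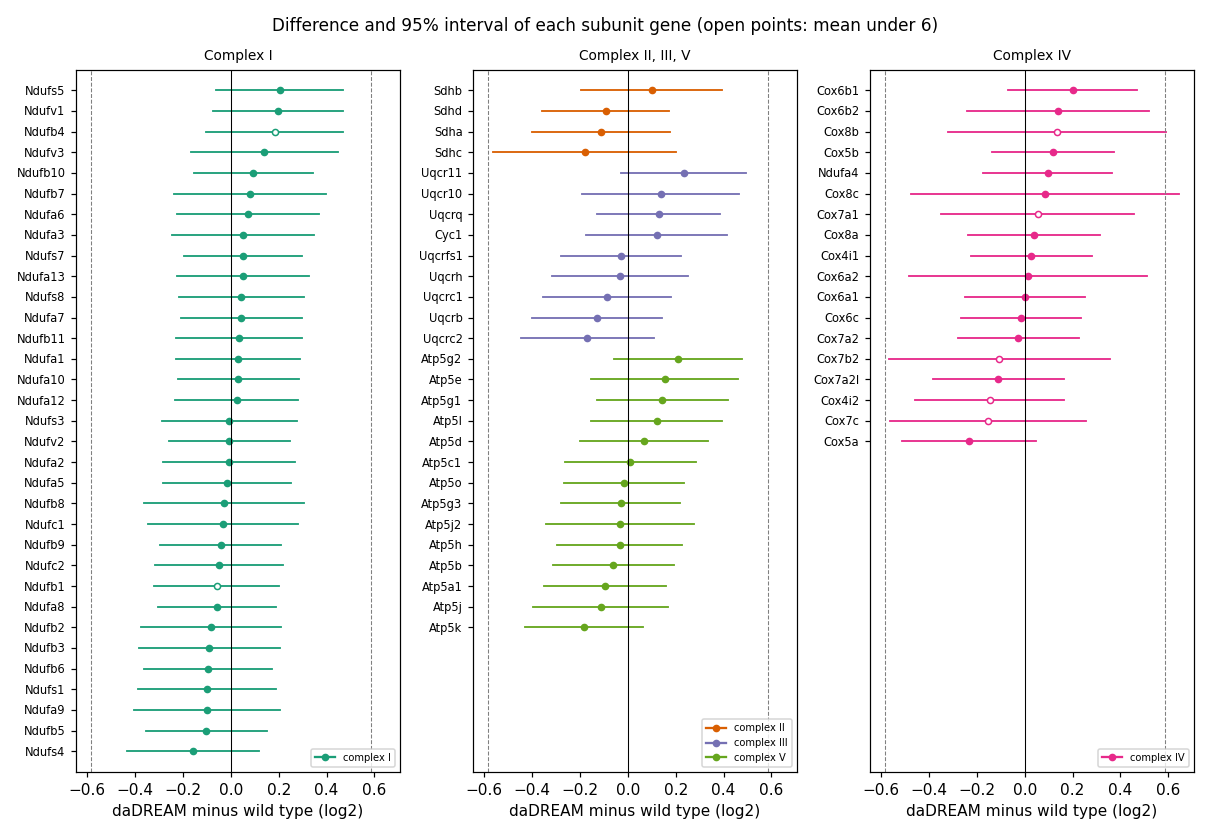
Difference (daDREAM minus wild type, log2, x axis) of each of the 78 subunit genes at its brightest probe set, with 95% limma intervals as bars, grouped by complex. Open points have a mean under 6 and dashed lines mark a 1.5-fold change in either direction. All intervals include 0, and the bars of Cox8b and Cox8c reach past the dashed line.

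In 8 of the 78 genes the 3 daDREAM arrays did not overlap the 3 wild-type arrays, 6 higher (7.69%) and 2 lower (2.56%) in daDREAM. Over all genes the background was 3.55% higher and 2.04% lower. The 8 genes lie in complexes I, III, IV and V and none of them passed limma, so their values follow as measurements. The count of lower genes was 7 of 78 after renewed quantile normalization, where 3.79% of all genes were lower without overlap, and 1 after median centring, beside 2.3%. Without daDREAM replicate 1 the counts were 14 higher and 19 lower, beside 17.5% and 16.5% of all genes.

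In complex I the 33 genes divided into 16 higher and 17 lower, with a median difference of -0.01 and a range from -0.16 to 0.20. The subunits that carry flavin and iron-sulfur clusters, over which electrons from NADH travel, differed by -0.10 to 0.20. Ndufv1, the NADH-binding flavoprotein, was at 10.35, 10.48 and 10.33 in daDREAM and at 10.16, 10.11 and 10.30 in wild type. Every daDREAM array was above every wild-type array, the nearest pair by little. Its difference was 0.20 with a 95% interval from -0.07 to 0.47, but its other 2 probe sets differed by -0.11 and 0.10.

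Ndufv2, the partner iron-sulfur subunit, was at 10.96 ± 0.07 in daDREAM and 10.97 ± 0.03 in wild type (SD, n = 3 each), a difference of -0.01. A dimmer probe set of Ndufv2 was the 1 of 160 with an unadjusted limma p under 0.05 (adjusted p = 0.998), beside 0.706% of all probe sets lower at that threshold. It read 9.40, 9.17 and 9.21 in daDREAM and 9.58, 9.57 and 9.50 in wild type, so all daDREAM arrays were below all wild-type arrays, and its difference was -0.29 (interval -0.56 to -0.02). The third Ndufv2 probe set differed by -0.31 with overlapping arrays. The dimmer probe sets of this gene thus shared a direction, while the brightest lay near 0, from -0.04 to 0.02 with 1 array left out.

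Ndufs1, the largest iron-sulfur subunit, differed by -0.10 (interval -0.39 to 0.19). Its daDREAM arrays spread widely at 10.09, 9.88 and 9.77, against 10.00, 10.02 and 10.02 in wild type. Ndufs7 and Ndufs8, which hold the last clusters before ubiquinone, differed by 0.05 and 0.04. The 6 probe sets of Ndufs8 ran from -0.11 to 0.04.

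Among the accessory subunits of complex I, Ndufs5 was at 10.67, 10.86 and 10.86 in daDREAM and at 10.58, 10.59 and 10.61 in wild type. Its daDREAM arrays were all higher, and daDREAM replicate 1 lay near the wild-type arrays. The difference was 0.20 (interval -0.06 to 0.47). Ndufb10 was at 10.17, 10.09 and 10.15 in daDREAM and at 10.07, 10.05 and 10.01 in wild type, a difference of 0.09. Its groups were separate by a margin smaller than the spread within them. Ndufs4, whose loss in mice gives a mitochondrial encephalopathy with damage to the cerebellum and brainstem, had the lowest difference in the complex at -0.16 (interval -0.44 to 0.12). Its other bright probe sets differed by 0.03 and -0.25, and a dim probe set by 0.11, so the direction did not hold across the gene. Ndufb5, a membrane arm subunit, had the next lowest difference in the complex at -0.10.

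Complex II, succinate dehydrogenase, also serves the citric acid cycle. Of its 4 genes 1 was higher and 3 were lower, with a median difference of -0.10, which was -0.04 without daDREAM replicate 3 and -0.15 without daDREAM replicate 1. Sdhc, a membrane anchor, was at 9.64, 9.45 and 9.06 in daDREAM and at 9.62, 9.64 and 9.43 in wild type. Only daDREAM replicate 3 lay below all wild-type arrays, and the difference was -0.18 (interval -0.56 to 0.20). Without daDREAM replicate 3 it was -0.02 and without daDREAM replicate 1 it was -0.31, and the other probe set of Sdhc differed by 0.04. Sdha, the flavoprotein that oxidises succinate, differed by -0.11, the other anchor Sdhd by -0.09 and the iron-sulfur subunit Sdhb by 0.10. The intervals of these 3 genes reached at most 0.40 to either side of 0.

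Complex III had 4 genes higher and 5 lower, with a median difference of -0.03. Uqcr11, a small accessory subunit, was at 10.00, 9.99 and 10.10 in daDREAM and at 9.87, 9.81 and 9.71 in wild type. The groups did not overlap, and the gap between them was about as wide as the range within daDREAM. The difference was 0.23 (interval -0.03 to 0.49), and Uqcr11 has 1 probe set. Its neighbour in the complex, Uqcr10, differed by 0.14 with daDREAM replicate 1 below all wild-type arrays.

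The electron carriers of complex III lay on either side of 0. Cyc1, cytochrome c1, differed by 0.12 and Uqcrfs1, the Rieske iron-sulfur protein, by -0.03. The core proteins Uqcrc1 and Uqcrc2, related to processing peptidases, differed by -0.09 and -0.17. Uqcrb, which contributes to ubiquinone binding, differed by -0.13. Uqcrc2 was at 10.01, 9.79 and 9.74 in daDREAM and at 10.03, 10.01 and 10.01 in wild type, while its other probe set differed by 0.03.

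Complex IV had 10 genes higher, 7 lower and 1 with no difference, and a median difference of 0.02. Cox5a, a subunit that faces the matrix, had the lowest difference of all 78 genes. It was at 11.67, 11.61 and 11.47 in daDREAM and at 11.90, 11.86 and 11.69 in wild type, a difference of -0.23 (interval -0.51 to 0.05). The groups were separate by the gap between daDREAM replicate 1 and wild-type replicate 3. The other 2 Cox5a probe sets differed by 0.09 and -0.05, so the direction did not hold across the gene.

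Cox5b, the zinc-binding matrix subunit, was at 12.46, 12.45 and 12.34 in daDREAM and at 12.33, 12.24 and 12.32 in wild type, a difference of 0.12. The groups were separate by a margin of the last printed digits. Its 3 other bright probe sets differed by 0.00 to 0.15, and its 2 dim probe sets by -0.21 and -0.31. Cox4i1, the general form of subunit 4, differed by 0.03, and Cox6a1, the general form of subunit 6a, by 0.00. Ndufa4, long named after complex I, differed by 0.10.

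Several complex IV subunits exist as tissue isoforms, and the isoform pairs showed no common shift. Cox6b1, the widely expressed form, differed by 0.20 (interval -0.07 to 0.47), with its other probe set at -0.17, and the testis form Cox6b2 by 0.14. Cox7a2, the general form, differed by -0.03, and Cox7a1, the heart and muscle form, by 0.05. Cox7a2l, which joins complexes III and IV into supercomplexes, differed by -0.11. Cox8a, the general form, differed by 0.04. Cox4i2, a form known from lung, was dim, at 5.09 ± 0.18 in daDREAM and 5.24 ± 0.10 in wild type (SD, n = 3 each), a difference of -0.15.

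The muscle and testis forms varied more from array to array. Cox6a2, a heart and muscle form, was at 6.26, 6.93 and 7.05 in daDREAM and at 6.64, 6.61 and 6.95 in wild type. Cox8c, a testis form, was at 6.92, 7.38 and 7.77 in daDREAM and at 7.17, 7.00 and 7.65 in wild type. In each of these genes daDREAM replicate 1 was the lowest of all 6 arrays. Cox8b, a heart and muscle form in rodents, was at 4.57, 5.05 and 5.27 in daDREAM and at 4.94, 4.59 and 4.96 in wild type. The differences were 0.01 for Cox6a2, 0.08 for Cox8c and 0.13 for Cox8b. The pooled SD within genotypes was 0.38 for Cox8c and 0.33 for Cox6a2, the highest of the 78 genes, against a median of 0.09. Of 10 striated muscle markers, all with a mean under 6, 8 were higher in daDREAM (6 under either other scaling), and their mean level ran from 4.15 to 4.52 in daDREAM and from 4.19 to 4.33 in wild type. The part of muscle tissue in these values was not tested. Cox7c was represented by a dim probe set and differed by -0.15.

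Complex V, the ATP synthase, had 6 genes higher and 8 lower, with a median difference of -0.02. Atp5b, the catalytic beta subunit, was at 12.47, 12.40 and 12.36 in daDREAM and at 12.49, 12.42 and 12.50 in wild type, a difference of -0.06 (interval -0.31 to 0.19). Its arrays overlapped. Atp5a1, the alpha subunit, differed by -0.10 and Atp5c1, the rotating gamma subunit, by 0.01. A dimmer Atp5a1 probe set differed by 0.38 with an interval from -0.20 to 0.95.

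The subunit c genes encode the same mature ring protein of the rotor from 3 loci. Atp5g2 was at 10.21, 10.41 and 10.34 in daDREAM and at 10.15, 10.04 and 10.14 in wild type, a difference of 0.21 (interval -0.06 to 0.48). All its daDREAM arrays were above the wild-type arrays. Atp5g1 differed by 0.14 with daDREAM replicate 1 equal to a wild-type array, and Atp5g3 by -0.03. A dim further probe set of each of Atp5g1 and Atp5g2 differed by -0.30.

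Atp5k, subunit e, which takes part in the pairing of ATP synthases along cristae, was at 10.78, 10.79 and 10.83 in daDREAM and at 10.97, 10.95 and 11.03 in wild type. Each daDREAM array was lower than each wild-type array, and the spread within either group was small. The difference was -0.18 (interval -0.43 to 0.06). A second probe set of Atp5k differed by -0.15 and also did not overlap, and the third differed by -0.06 with overlap. Of the 8 genes with separate arrays, Atp5k was the gene with 2 separate probe sets in the same direction. Uqcr11, Ndufs5 and Ndufb10 have 1 probe set each and Atp5g2 has 1 with a mean of at least 6, so they offered no such comparison. Atp5e, the epsilon subunit, differed by 0.15 and Atp5j, coupling factor 6, by -0.11.

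**Figure D2:**
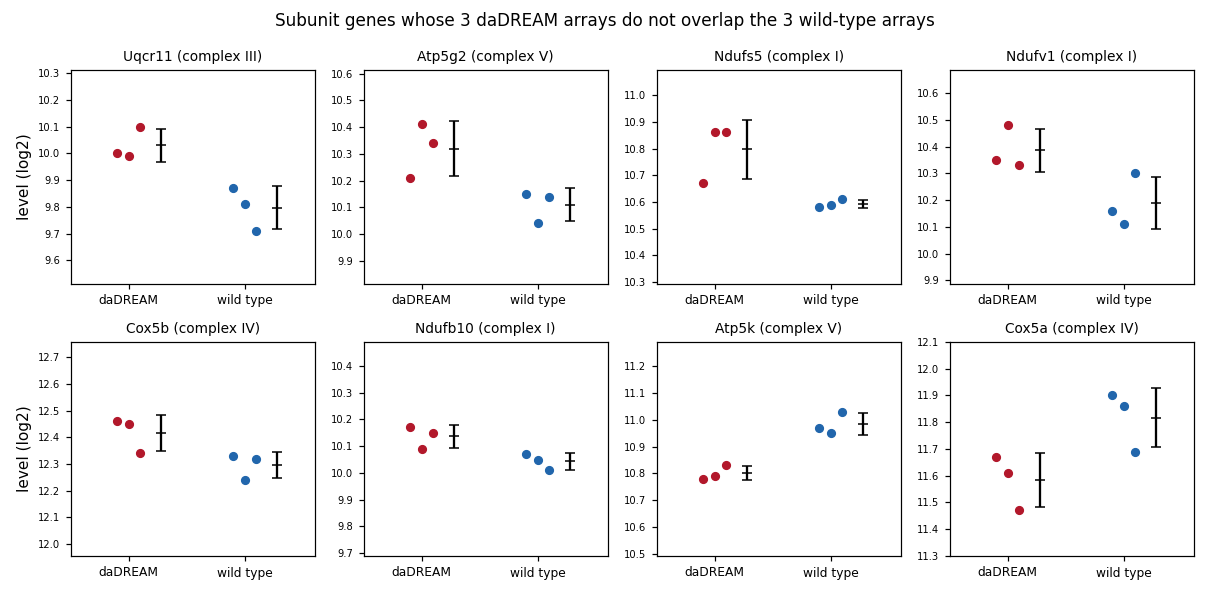
Level (log2, y axis, a window of the same height in each panel) of the 8 subunit genes whose arrays do not overlap, with the 3 daDREAM arrays left and the 3 wild-type arrays right. Points are arrays in replicate order and bars are the mean ± SD. Uqcr11, Atp5g2, Ndufs5, Ndufv1, Cox5b and Ndufb10 are higher in daDREAM, and Atp5k and Cox5a are lower.

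Probe sets of the same gene bounded how far a single probe set can be read. Of 47 genes with several probe sets, 28 held both signs. Counting bright probe sets alone, those at 6 or more on average, 18 of 38 genes held both signs. Among these 38 genes the gap between the highest and the lowest difference of a gene's bright probe sets had a median of 0.15 and reached 0.47 in Atp5a1. With dim probe sets included it reached 0.51 in Atp5g2. The median absolute difference between genotypes was 0.09 over the 78 genes. That is an unlike measure, as it takes 1 probe set per gene, and a gap over several probe sets grows with their number. Atp5j2, subunit f of ATP synthase, ran from -0.03 to 0.40, and Ndufv1 from -0.11 to 0.20. Uqcrb and Ndufb7 were among the genes whose probe sets differed least, at -0.13 and -0.12 for Uqcrb and 0.08 and 0.06 for Ndufb7.

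**Figure D3:**
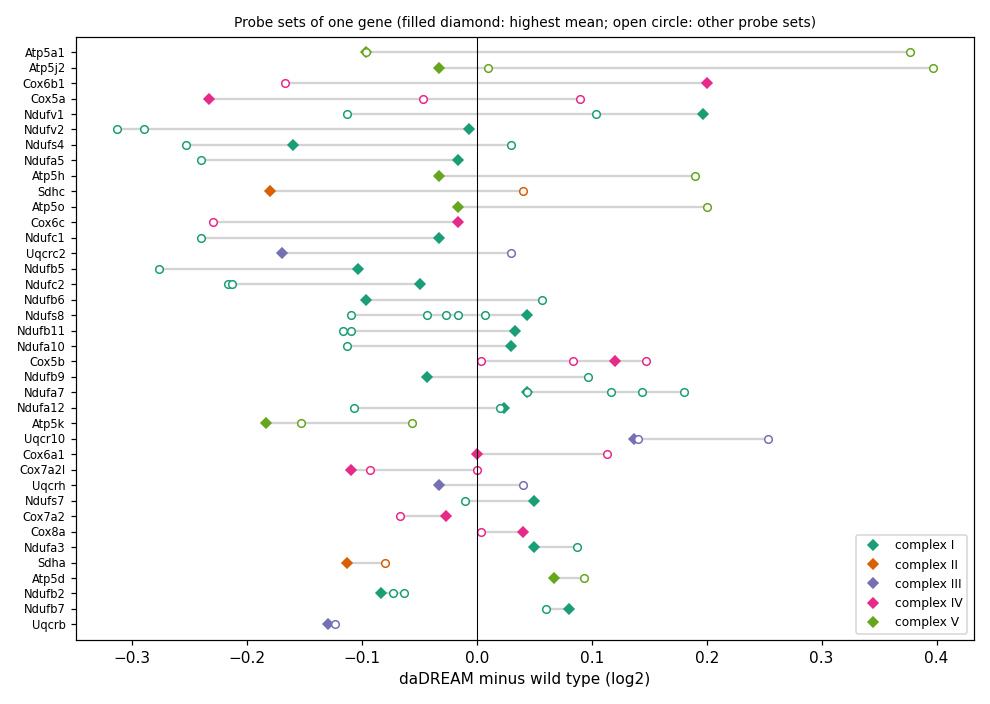
Difference (daDREAM minus wild type, log2, x axis) of each bright probe set (mean of 6 or more), for the 38 subunit genes with several such probe sets, ordered by the gap between them. Filled diamonds are the brightest probe sets and open circles the others; colours mark complexes. In 18 of the 38 genes the probe sets lie on both sides of 0.

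The mean level of the 78 subunit genes was 10.08, 10.11 and 10.05 in daDREAM and 10.07, 10.09 and 10.06 in wild type, a range of 0.06 over the arrays. The range was 0.01 for the mean of all genes. Among the marker lists it was narrowest for 6 granule cell markers, at 0.05. It was 0.15 for Purkinje cell markers and widest for choroid plexus markers, at 0.71. Complexes differed within this mean. In daDREAM replicates 1 and 3 complex I lay at 0.04 and -0.05 from its 6-array mean, and complex IV at -0.08 and 0.06. The complex IV mean includes dim probe sets and tissue isoforms, such as Cox6a2 and Cox8c, that were lowest in daDREAM replicate 1. By the median deviation over its genes complex IV was at -0.02 and 0.01 on these arrays, and complex I at 0.05 and -0.07. The pooled SD within genotypes had a median of 0.09 over the 78 genes and 0.19 over all genes. For the 9378 genes with a mean of at least 6 the mean level had a range of 0.23 over the arrays, highest in daDREAM replicate 1 and lowest in daDREAM replicate 3. Among the 71 subunit genes of that brightness, daDREAM replicate 3 was the lowest array in 43.7% and daDREAM replicate 1 the highest in 25.4%, against 44.4% and 37.8% of the 9378 genes. Over all 78 genes daDREAM replicate 3 was the lowest array in 42.3% and daDREAM replicate 1 in 14.1%, beside 27.2% and 25.3% of all 18193 genes. After renewed quantile normalization these shares were 19.2% and 30.8% of the 78 genes, beside 22.6% and 26.1% of all genes. The mean of complex II was lowest in daDREAM replicate 3, at -0.17 from its 6-array mean, and that of complex IV in daDREAM replicate 1, at -0.08. By the median deviation complex IV was lowest in wild-type replicate 1, at -0.03, with daDREAM replicate 1 at -0.02. After renewed quantile normalization daDREAM replicate 1 had the lowest median deviation of complex II, at -0.04, and daDREAM replicate 3 was at -0.03.

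The arrays themselves differed in their spread and in their controls. The interquartile range over all probe sets was 3.49, 3.15 and 2.97 in daDREAM and 3.27, 3.38 and 3.10 in wild type. The mean of 18 hybridization controls, RNA added in fixed amounts, was 9.47 to 10.47 in daDREAM and 8.99 to 9.48 in wild type. The 3′ over 5′ difference of the actin control, a sign of RNA integrity, was 0.96, 0.58 and 0.63 in daDREAM and 0.78 to 0.79 in wild type. Their part in the results was not tested. Defining markers of cerebellar neurons were bright, as Pcp2 of Purkinje cells at 12.46 ± 0.02 in daDREAM and 12.41 ± 0.03 in wild type and Gabra6 of granule cells at 11.99 ± 0.08 in daDREAM and 12.05 ± 0.02 in wild type (SD, n = 3 each). Of 6 Purkinje markers 1, Pcp2, was higher and 5 were lower in daDREAM, with differences from -0.18 to 0.04, and of 6 granule markers 2 were higher and 4 lower. All 9 choroid plexus markers were higher in daDREAM, 6 of them without overlap, beside 3.55% of all genes. Their mean level was 6.32 to 6.60 in daDREAM and 5.89 to 6.13 in wild type, and 6 of the 9 had a mean under 6. Microglial markers had 7 of 8 genes higher, with a mean level of 6.20 to 6.27 in daDREAM and 5.99 to 6.11 in wild type, and 4 of the 8 had a mean under 6. Astrocyte and Bergmann glia markers had 3 higher and 4 lower, oligodendrocyte markers 2 and 3, and blood markers 2 and 3. The part of those cells in the levels of the subunit genes was not tested.

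Genes that build, feed and regulate the respiratory chain were measured beside the subunits, and none passed limma at an adjusted p under 0.05. Assembly factors, which insert cofactors and join subunits, had 10 of 15 genes lower for complex I (median difference -0.07) and 14 of 19 lower for complex IV (median -0.10). Those of complexes II and III had 8 of 10 lower (median -0.04), but 4 of 10 after renewed quantile normalization, and those of complex V 2 of 4 (median -0.08). After that normalization 9 of 15 were lower for complex I, 14 of 19 for complex IV and 2 of 4 for complex V. Without daDREAM replicate 3, 8 of 15 were lower for complex I (median -0.0067), 13 of 19 for complex IV (median -0.06) and 1 of 4 for complex V (median 0.02). Among all genes at 6 or more on average, 5367 of 9378 were lower in daDREAM with a median of -0.03, against 4598 of 9378 after renewed quantile normalization and 3995 of 9378 without daDREAM replicate 3 (median 0.02). Ndufaf4, an assembly factor of complex I, was at 7.30, 6.65 and 6.59 in daDREAM and at 7.31, 7.43 and 7.40 in wild type. The groups did not overlap, with daDREAM replicate 1 next to the wild-type arrays, and the difference was -0.53 (interval -0.98 to -0.09, limma adjusted p = 0.998). Ndufaf2, another assembly factor of complex I, named after its values were seen, was at 7.87, 7.88 and 7.92 in daDREAM and at 7.71, 7.65 and 7.62 in wild type. It was higher without overlap, by 0.23 (interval -0.02 to 0.48). Cox17, a copper chaperone of complex IV, differed by -0.41 with overlapping arrays (interval -0.84 to 0.02), and Sco2, which delivers copper to complex IV and was also named after its values were seen, by 0.37 with overlapping arrays (interval -0.0013 to 0.75). The lists of complexes II and III and of complex V were led by Ttc19 and Atpaf1, both at -0.24.

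Pyruvate dehydrogenase and citric acid cycle genes had 13 of 15 members lower, with a median difference of -0.09, led by Pdhb at -0.18 (interval -0.46 to 0.10). Their mean level was 9.73, 9.48 and 9.34 in daDREAM and 9.60, 9.65 and 9.55 in wild type. The daDREAM arrays thus lay on both sides of the wild-type arrays. The count of lower members was 11 of 15 after renewed quantile normalization and 13 of 15 after median centring. It was 14 of 15 without daDREAM replicate 1 and 8 of 15 without daDREAM replicate 3. Regulators of mitochondrial biogenesis had 12 of 17 members lower (median -0.11). Of these regulators 13 were lower after renewed quantile normalization (median -0.12), 14 after median centring and 14 without daDREAM replicate 1. Without daDREAM replicate 3, 7 of 17 regulators were lower (median 0.02). Esrrg, an orphan nuclear receptor of mitochondrial genes, led them at -0.34 with daDREAM arrays at 8.63, 7.81 and 7.10 and wild-type arrays at 8.08, 8.47 and 8.01. Ppargc1a, the coactivator PGC-1alpha, and Tfam, the packaging factor of mitochondrial DNA, both named after their values were seen, each differed by -0.21 with intervals that included 0.

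Cytochrome c, the carriers and the ATP synthase inhibitor had 7 of 9 members lower (median -0.05), led by the ADP/ATP carrier Slc25a4 at -0.20. The count was 6 of 9 after renewed quantile normalization and 5 of 9 without daDREAM replicate 3. The 4 further subunit genes outside the name pattern differed by -0.10 to 0.04, with Atp5mpl lowest, and 1 of them was lower after renewed quantile normalization. Over the arrays the mean levels of these related lists had ranges of 0.17 to 0.49, against 0.06 for the 78 subunit genes and 0.08 to 0.25 for the complexes taken alone. The mean of all genes had a range of 0.01.

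**Figure D4:**
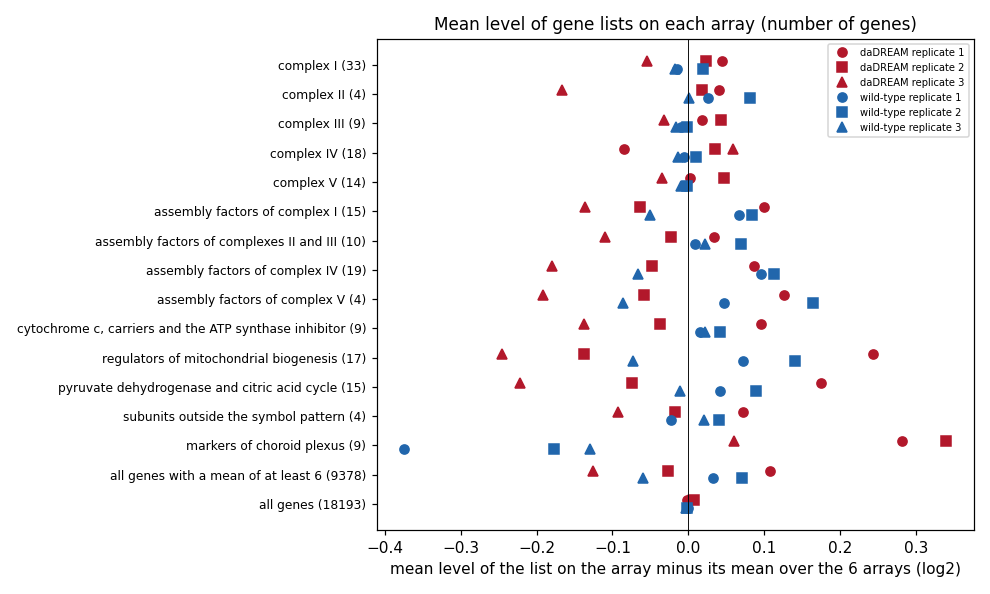
Mean level of each gene list on each array minus its mean over the 6 arrays (log2, x axis), with daDREAM arrays in red above wild-type arrays in blue and the number of genes in brackets. The complexes lie within 0.17 of their means, and the lists of regulators and of the citric acid cycle spread furthest of the related lists, with daDREAM replicate 1 on the high side and daDREAM replicate 3 lowest. The choroid plexus markers are higher on all daDREAM arrays.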

How the data were processed

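The values are RMA summaries on the log2 scale that the authors deposited, computed with the affy package per the submitters' processing notes, whose versions the sources used here do not give. RMA equalises probe distributions across arrays, which can hide a shift common to most genes, and it shrinks differences at low signal. The deposited values still differed between arrays in their distribution, with interquartile ranges from 2.97 to 3.49. Precision is limited by the number of arrays.

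The 64 control probe sets were left out, and 45037 were fitted by genotype in R 4.3.3 with lmFit and eBayes of limma 3.58.1, 2-sided and without covariates, with Benjamini-Hochberg adjustment over all of them. Gene names came from the platform annotation, and probe sets with several symbols were left out of gene counts. The fit was also run on simulated data with independent noise. Deviations of the measured arrays are correlated, so that run does not measure power in these data. Alternatives were the replicate block, a mean of at least 6, median centring, renewed quantile normalization, a trended and robust prior, the mean of a gene's probe sets, leaving out _s_at, _x_at and _a_at probe sets, and leaving out each array.

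The members and lists were chosen with earlier results of these data known. Named genes are the catalytic and cluster-bearing subunits, tissue isoforms, the 2 highest and 2 lowest differences of each complex, all genes with separate arrays, and the leading member of each related list. Other genes named were chosen after their values were seen. Same-numbered arrays deviated together with correlations of 0.12, -0.28 and 0.32 over all probe sets, so the numbers were not taken as pairs.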

Additional observations from a re-analysis of the deposited data

How the results depend on the processing

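No subunit gene and no probe set passed an adjusted p under 0.05 in limma under any alternative run, and the smallest adjusted p of a named gene was 0.264, without daDREAM replicate 1. The replicate block left the differences as they were and kept the count of subunit genes past the adjusted threshold at 0, with 1093 of all probe sets at an unadjusted p under 0.05 against 817 without it. At an unadjusted p under 0.05 the trended and robust prior gave 3 subunit genes higher and 2 lower, beside 0.874% and 0.555% of all genes, and averaging each gene's probe sets gave 1 higher, beside 1.4%. Leaving out 1 array gave 0 to 1 higher and 0 to 1 lower, each 1 being without daDREAM replicate 1, beside 7.6% and 8.89% of all genes. Subunit genes without overlap numbered 5 higher and 7 lower after renewed quantile normalization (4.53% and 3.79% of all genes) and 5 higher and 1 lower after median centring (2.66% and 2.3%), both chosen after seeing the data, as were the counts that follow. Leaving out 1 array, which leaves fewer values to overlap, gave 6 to 14 higher and 3 to 19 lower, the highest counts without daDREAM replicate 1 (17.5% and 16.5% of all genes) and 6 higher and 3 lower without daDREAM replicate 2 (5.39% and 4.16%). The intervals within a 1.5-fold change numbered 67 to 75 when 1 array was left out and 55 of 62 genes without _s_at, _x_at and _a_at probe sets. That last setting moved the median difference of complex III to 0.12.

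Of 44 named genes, 25 turned under no alternative run, 18 turned under at least 1, and Cox6a1, at 0.00, took both signs. Renewed quantile normalization turned Ndufv2 to 0.013 and Uqcrfs1 to 0.0069, and median centring turned Atp5c1 to -0.017 and Cox6a2 to -0.013. Averaging probe sets turned Cox5b to -0.027, Atp5a1 to 0.061, Ndufs8 to -0.024, Atp5c1 to -0.063, Atp5g2 to -0.03, Atp5g1 to -0.078, Cox8c to -0.12 and Cox7c to 0.015. Without _s_at, _x_at and _a_at probe sets, another probe set stood for the gene, and Cox5b was at -0.21, Cox6b1 at -0.17, Atp5c1 at -0.14, Ndufv1 at -0.11, Ndufs7 at -0.01, Atp5g1 at -0.30 and Cox7c at 0.18. With 1 array left out, differences ran from -0.018 to 0.088 for Cox8a, -0.03 to 0.085 for Atp5c1, -0.14 to 0.26 for Cox6a2, -0.042 to 0.023 for Ndufv2, -0.12 to 0.30 for Cox8c, -0.078 to 0.21 for Cox7a1, -0.02 to 0.33 for Cox8b and -0.045 to 0.01 for Cox7a2. The cause of these turns in scaling was not tested.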
